A study of Mus musculus with 10 samples.

Results

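The genes described here make, break down and sense prostaglandins, and all 10 of those chosen by name were among the 24454 genes counted in mouse back skin. They are the cyclooxygenases *Ptgs1* and *Ptgs2*, the synthases *Ptges*, *Ptges2* and *Ptgds*, the degrading enzyme *Hpgd*, and the PGE2 receptors *Ptger1*, *Ptger2*, *Ptger3* and *Ptger4*. In the skin of *Zfp36*ΔARE mice *Ptgds* and *Ptger4* were higher than in WT skin, *Ptger2* and *Ptgs1* were lower, and no difference was called for the other 6. *Ptgs2* was among those 6. Its fitted difference was a 1.20-fold lower level in *Zfp36*ΔARE skin, within an interval that ran from a lower to a higher level.

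Prostaglandins are lipid mediators that cells make on demand from arachidonic acid, which phospholipases release from membranes. The cyclooxygenases convert it to PGH2, from which separate synthases make PGE2, PGD2 and the other prostanoids. PGE2 acts through the G protein-coupled receptors EP1 to EP4, and 15-hydroxyprostaglandin dehydrogenase inactivates it. In skin, COX-2 and PGE2 are known for their part in the response to tumor promoters, and the COX-2 transcript is a textbook example of an mRNA with AU-rich elements, the motif bound by tristetraprolin (TTP, encoded by *Zfp36*).

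Skin came from 5 WT and 5 knock-in C57BL/6 mice, 1 library per mouse, with the knock-in genotype labelled TTP delta ARE and called *Zfp36*ΔARE here. The knock-in allele lacks a stretch of the *Zfp36* 3′-UTR that destabilizes its transcript, so the change is present in every cell type that uses the gene, and controls were littermates. Both groups were shaved, given 400 nmol of the mutagen DMBA at 7 weeks of age and, from 1 week later, 10 nmol of the phorbol ester TPA 2 times a week for 20 weeks, so no untreated skin stands beside them. The biopsies were full-thickness, treated skin without tumor.

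*Zfp36* itself was between 1824 and 2496 normalized counts in WT and between 4196 and 6134 in *Zfp36*ΔARE skin (log2 fold change 1.33, SE 0.119, adjusted p = 0.00195), where SE is the standard error and each adjusted p here and below comes from the quasi-likelihood test of edgeR over all tested genes. Every mouse thus matched its label. A normalized count is the count scaled by edgeR's TMM factors to the mean library. Libraries held 19595035 to 36419573 counts, and 15543 genes were tested. Of these, 34.3% passed an adjusted p of 0.05 and 8.31% also had a fold change over 2, so a call for a single gene was common in this comparison. Several features differed between the groups along with genotype. The 5 WT libraries and *Zfp36*ΔARE replicate 1 had at most 1 count from 4 Y-linked genes and *Zfp36*ΔARE replicates 2 to 5 had at least 3349, so the sex of the mice cannot be told apart from genotype except through that 1 knock-in mouse. Skin markers were present throughout. The summed normalized counts of 8 hair shaft keratins were 1811 to 90197 in WT and 136166 to 415503 in *Zfp36*ΔARE skin, with WT replicates 3 and 1 lowest.

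The members differed widely in level, and *Ptgs2* was near the bottom. Counts per kb of gene length, scaled to library size (RPKM), the scale on which levels of different genes can be compared, were 28.4 ± 5.98 for *Ptgs1* (SD, n = 5 WT mice), 18.4 ± 2.71 for *Ptges*, 17.2 ± 8.86 for *Ptgds*, 15.6 ± 3.11 for *Hpgd* and 11.6 ± 1.14 for *Ptges2*. The receptors were lower, with *Ptger4* at 7.46 ± 1.26 and *Ptger3* at 4.52 ± 2.09. *Ptger2* (0.528 ± 0.154), *Ptgs2* (0.513 ± 0.233) and *Ptger1* (0.490 ± 0.214) formed the lowest group. In WT skin the ranges of *Ptgs1* and *Ptges*, of *Ptges2* and *Ptger4*, and of *Ptger3* and *Ptger2* did not overlap, while the other neighbours in this order did. In *Zfp36*ΔARE skin *Ptgds* moved from the third place to the first at 50.3 ± 9.26, above *Ptgs1* at 19.6 ± 4.58 in 5 of 5 mice, and *Ptger2* moved to the last at 0.185 ± 0.106.

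**Figure D1:**
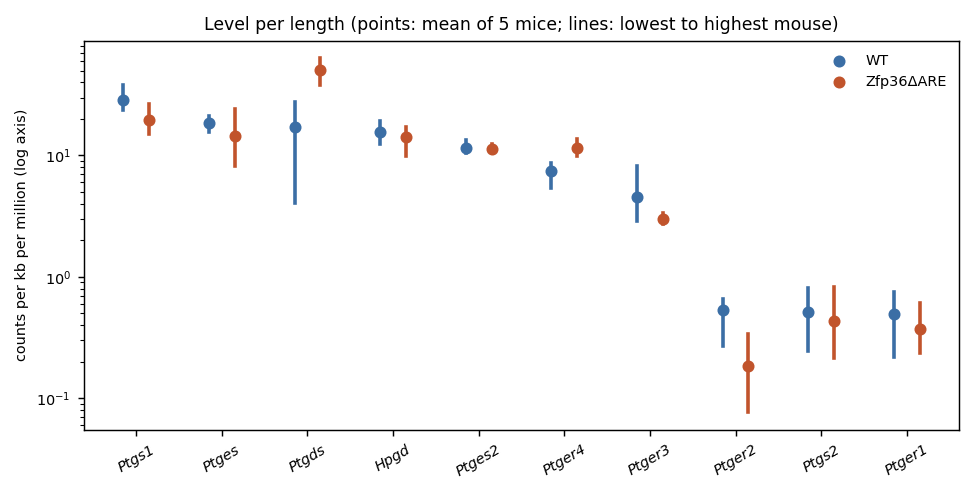
Level of each gene in RPKM on a log axis, ordered by the WT mean. Points are means of 5 mice and lines run from the lowest to the highest mouse. *Ptgs2*, *Ptger1* and *Ptger2* lie below 1 in both groups, and *Ptgds* and *Ptger2* show the widest gaps between groups.

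The TTP-binding motif was unevenly spread over these transcripts. In the annotated 3′-UTRs of GENCODE M21 (GRCm38), *Ptgs2* held 14 ATTTA pentamers in 2445 bases, more than 97.0% of 20996 protein-coding genes, and 6 copies of the longer TATTTAT, each of which contains an ATTTA. *Ptger2* held 6 pentamers, *Ptger4* 5, and *Hpgd*, *Ptger3* and *Ptges2* 4 each. *Ptgs1*, *Ptges*, *Ptgds* and *Ptger1* held none. Over all protein-coding genes, 65.0% had at least 1 ATTTA and 27.5% at least 1 TATTTAT, so a single match is common. Only the strand of the transcript was searched, and a match is a description of letters, not a binding site. The 30 bases with the most pentamers are given for *Ptgs2*, whose cluster begins just after the stop codon, for the 2 receptors that differed between genotypes and hold pentamers, and for *Zfp36* as the allele under study. They are written 5′ to 3′ on the strand of the gene with each ATTTA in capitals.
*Ptgs2*, chr1:150105796-150105825, plus strand, bases 14 to 43 of the 3′-UTR: atATTTATTTATTTAtgtgaagaATTTAat
*Ptger4*, chr15:5234215-5234244, minus strand, bases 388 to 417: gaaatataATTTAaggtATTTAtgttcttc
*Ptger2*, chr14:45003506-45003535, plus strand, bases 1511 to 1540: ATTTAagcagagcagacaaagtttaATTTA
*Zfp36*, chr7:28376958-28376987, minus strand, bases 571 to 600: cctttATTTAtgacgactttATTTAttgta
The *Ptgs2* stretch held 4 pentamers, of which 3 overlap in a single run, and the other 3 stretches held 2 each, separate from one another. Whether the deletion in these mice covers the *Zfp36* bases shown was not analysed here.

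Of the 10 members, all of which passed the filter on low counts, 4 passed an adjusted p of 0.05, of which 2 rose and 2 fell in *Zfp36*ΔARE skin. The background was 34.3% of all tested genes (15.3% higher and 19.1% lower), so 4 of 10 is near it and is not a result about the set. With a fold change over 2 added, *Ptgds* passed as higher and *Ptger2* as lower, against a background of 8.31% (1.67% higher and 6.64% lower). The median log2 fold change of the members was -0.30 and that of all tested genes 0.0076. The values of each mouse and the fitted differences follow by role.

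**Figure D2:**
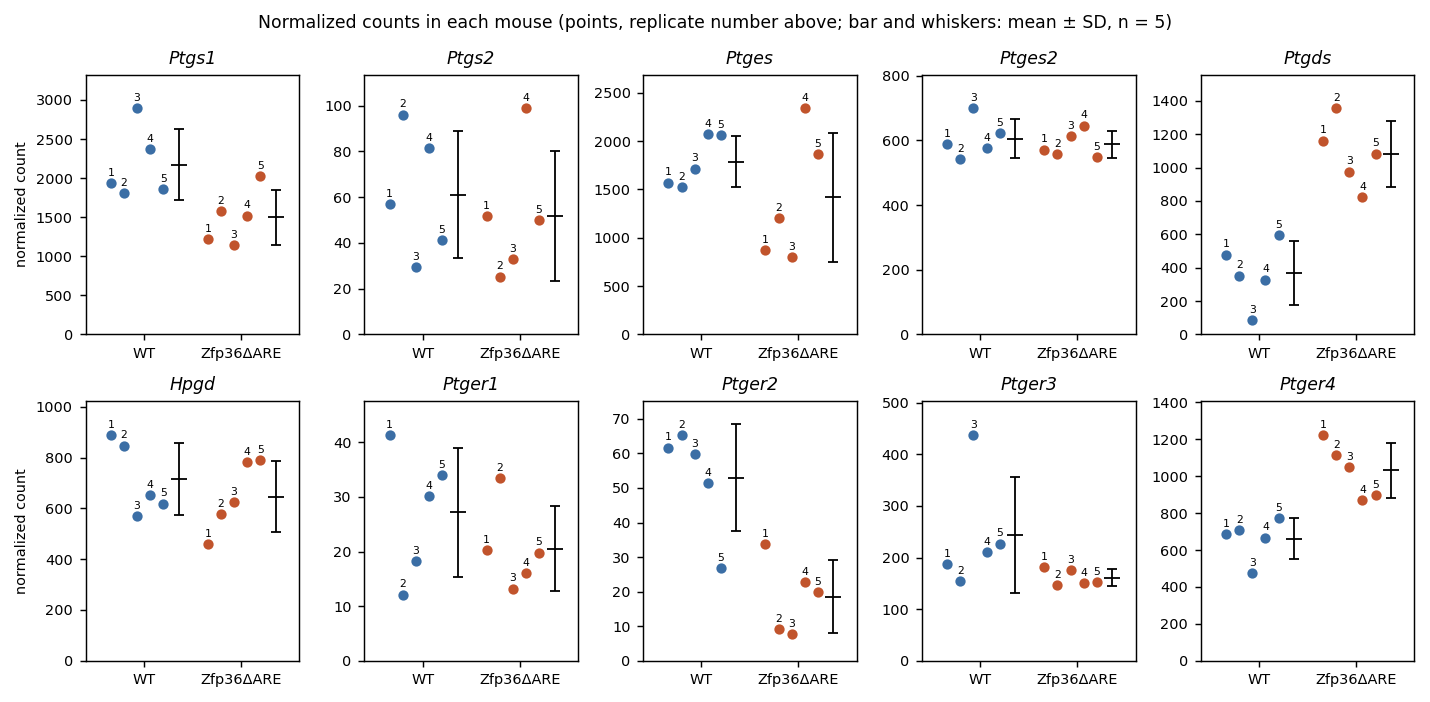
Normalized count of each gene in each mouse, with the replicate number above the point and the mean ± SD (n = 5) beside it, on axes that start at 0. The groups do not overlap for *Ptgds* and *Ptger4*, both higher in *Zfp36*ΔARE mice, as was so for 11.2% of all tested genes. Overlap is visible in the other 8 panels.

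*Ptgs2* (Entrez 19225; chromosome 1, 150100031 to 150108227, plus strand, 10 exons) encodes COX-2, the inducible cyclooxygenase. It had between 24 and 119 counts per library, and 12.9% of tested genes had a lower mean. In WT replicates 1 to 5 it was at 57.1, 96.1, 29.3, 81.5 and 41.3 normalized counts. The corresponding *Zfp36*ΔARE mice were at 51.7, 25.3, 32.9, 98.8 and 50.1. The highest and the lowest mouse were both *Zfp36*ΔARE, and the groups overlapped over nearly their whole range. The coefficient of variation was 45.3% in WT and 55.2% in *Zfp36*ΔARE mice, where *Ptges2* stayed at 9.81% and 7.05%.

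The mean of *Ptgs2* was 61.1 ± 27.7 in WT mice and 51.8 ± 28.6 in *Zfp36*ΔARE mice (SD, n = 5 each). The fitted log2 difference was -0.26 (SE 0.407, adjusted p = 0.632), with a 95% interval from 0.447 to 1.56 of the WT level. This interval holds both a fall to less than 0.5 of the WT level and a rise. Without *Zfp36*ΔARE replicate 4 the value was -0.62 (adjusted p = 0.214), and without WT replicate 2 it was -0.036. In that replicate 4 the summed level of 6 genes listed as neutrophil markers was also the highest of the 10 mice. It was 18471 normalized counts against 1021 to 4855 in the other 9. *Ly6g*, *Mpo* and *Camp* were at 0 counts in some libraries, and 3 of the 6 passed the filter on low counts. The list also holds *S100a8* and *S100a9*, which the study found in sorted epidermal cells too, so the sum does not measure neutrophils alone. The part of neutrophils in the *Ptgs2* level was not tested.

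*Ptgs1* (Entrez 19224; chromosome 2, 36230426 to 36252272) encodes COX-1, the constitutive cyclooxygenase, and carried most of the cyclooxygenase transcript. Per length, *Ptgs1* exceeded *Ptgs2* by 29.4 to 154-fold in WT and by 24 to 96.7-fold in *Zfp36*ΔARE mice, so *Ptgs2* was between 0.647% and 4.01% of their sum in any mouse. *Ptgs1* was at 1938, 1813, 2892, 2369 and 1860 normalized counts in WT replicates 1 to 5. In *Zfp36*ΔARE replicates 1 to 5 it was at 1221, 1575, 1139, 1521 and 2027. Of the 5 *Zfp36*ΔARE mice 4 lay below every WT mouse, and replicate 5 lay inside the WT range.

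The means of *Ptgs1* were 2174 ± 458 and 1497 ± 351 (SD, n = 5 each), a fall by 0.54 on the log2 scale (SE 0.176, adjusted p = 0.0381) or 1.45-fold. The call was close to the threshold. It was lost on leaving out any of WT replicates 1, 3 and 4 or *Zfp36*ΔARE replicates 1, 2, 3 and 4, with adjusted p between 0.0556 and 0.0824 and log2 differences from -0.58 to -0.42, and kept on leaving out the other 3. In bulk skin, fewer cells that hold a transcript and less of it per cell cannot be told apart. Of 8 mast cell markers 7 were called lower in *Zfp36*ΔARE skin and 1 was called higher. Over all tested genes 19.1% were called lower and 15.3% higher. The summed level of the 8 was 6197 to 15504 in WT and 3423 to 4345 in *Zfp36*ΔARE mice. Of 6 endothelial markers all 6 were lower, from 5122 to 11236 in WT to 3013 to 4038. No marker in these lists was at 0 counts in any library, and their part in the *Ptgs1* difference was not tested. Most macrophage, dendritic cell, adipocyte and skeletal muscle markers were called lower as well, while no T cell marker was called.

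Among the synthases *Ptgds*, which makes PGD2 from PGH2 and is also known as a carrier of lipophilic molecules, was the member with the greatest rise. Its locus (Entrez 19215) spans 25466709 to 25470046 of chromosome 2, minus strand. It was at 479, 352, 87.9, 329 and 596 normalized counts in WT replicates 1 to 5. In *Zfp36*ΔARE replicates 1 to 5 it was at 1161, 1354, 976, 824 and 1083. Each *Zfp36*ΔARE mouse lay above each WT mouse, as was so in this direction for 11.2% of all tested genes. WT replicate 3 was the lowest.

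The means of *Ptgds* were 369 ± 190 and 1080 ± 199 (SD, n = 5 each), which gave a log2 difference of 1.55 (SE 0.377, adjusted p = 0.0146), which is 2.92-fold with a 95% interval from 1.64 to 5.21. Without WT replicate 3 the value was 1.30 (adjusted p = 0.00514). All 5 melanocyte markers were called higher in *Zfp36*ΔARE skin, as were 15.3% of all tested genes, with none at 0 counts. Their sum was 3834 to 12473 in WT and 12426 to 22756 in *Zfp36*ΔARE mice. Within WT the 5 mice had the same order by *Ptgds* and by this sum, from replicate 3 at the bottom through 4, 2 and 1 to replicate 5. Within *Zfp36*ΔARE mice replicate 4 was the lowest and replicate 2 the highest in both, but the order between them differed (3, 5 and 1 by *Ptgds*, and 1, 3 and 5 by the sum). Of the 8 hair shaft keratins 1 was called, higher, with their summed levels given above. The part of these cells in the *Ptgds* difference was not tested.

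The PGE2 synthases did not show a called difference. *Ptges* (Entrez 64292; chromosome 2, 30889471 to 30929863) encodes the inducible microsomal synthase that often acts with COX-2. It was at 1571, 1520, 1714, 2068 and 2065 normalized counts in WT replicates 1 to 5, a narrow range. The *Zfp36*ΔARE mice, in the same order, were at 876, 1207, 801, 2337 and 1865. Replicates 1, 2 and 3 lay below every WT mouse while replicate 4 lay above every WT mouse, so the spread was wider, with a coefficient of variation of 46.9% against 14.8%. The fitted log2 difference was -0.34 (SE 0.279, adjusted p = 0.359), with a 95% interval from 0.515 to 1.22 of the WT level. Without *Zfp36*ΔARE replicate 4 it was -0.59 (adjusted p = 0.0845).

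*Ptges2* (Entrez 96979; chromosome 2, 32395896 to 32405772) encodes the second membrane-associated PGE2 synthase. It was the steadiest member, at 543 to 699 normalized counts in WT and 549 to 646 in *Zfp36*ΔARE mice. Its fitted log2 difference was -0.044 (SE 0.0816, adjusted p = 0.691), and its 95% interval, from 0.856 to 1.10 of the WT level, was the narrowest of the 10. The level of *Ptgds* per length was 0.232 to 1.38 times that of *Ptges* in WT mice and 1.6 to 6.01 times in *Zfp36*ΔARE mice. These ratios, given with no test, did not overlap between the groups.

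*Hpgd* (Entrez 15446; chromosome 8, 56294585 to 56321043) encodes 15-hydroxyprostaglandin dehydrogenase, which oxidizes PGE2 to an inactive product. It was at 890, 847, 571, 653 and 619 normalized counts in WT replicates 1 to 5. The 5 *Zfp36*ΔARE mice, in order, were at 458, 576, 626, 782 and 790. The groups overlapped, and only replicate 1 lay below the WT range. The fitted log2 difference was -0.15 (SE 0.174, adjusted p = 0.511), with a 95% interval from 0.690 to 1.17. Per length *Hpgd* was above *Ptgs2* by 20.8 to 50.6-fold in WT and by 20.5 to 58.9-fold in *Zfp36*ΔARE mice, nearly the same range.

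**Figure D3:**
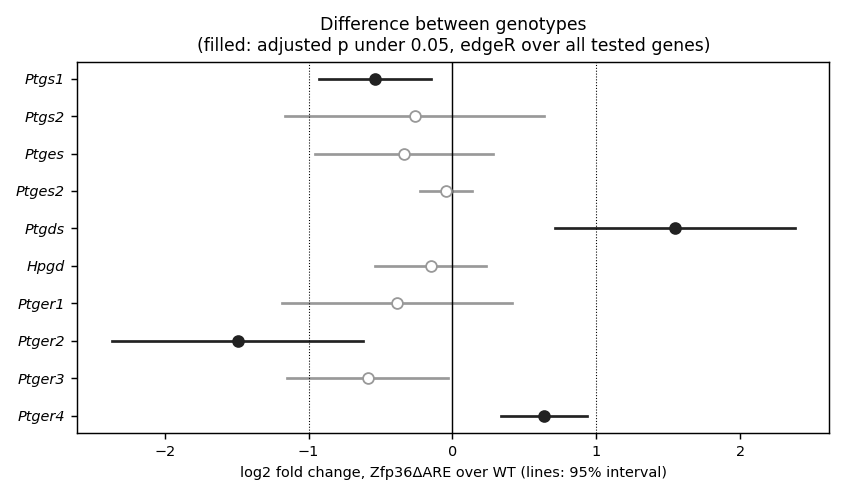
Fitted log2 fold change of each gene in *Zfp36*ΔARE over WT skin, with its 95% interval, which is not adjusted for the number of genes. Filled points passed an adjusted p of 0.05 over all tested genes, and dotted lines mark a fold change of 2. *Ptgds* and *Ptger4* lie to the right of 0, *Ptger2* and *Ptgs1* to the left, and the interval of *Ptgs2* spans 0.

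Of the 4 PGE2 receptors *Ptger4* was called higher, *Ptger2* was called lower and the other 2 were not called. *Ptger4* (Entrez 19219; chromosome 15, 5206661 to 5244187, minus strand) encodes EP4, which raises cAMP through Gs. It was at 686, 708, 477, 667 and 775 normalized counts in WT replicates 1 to 5. In *Zfp36*ΔARE replicates 1 to 5 it was at 1225, 1115, 1049, 871 and 897. Every *Zfp36*ΔARE mouse lay above every WT mouse, as was so in this direction for 11.2% of all tested genes. WT replicate 3, the mouse lowest in hair keratins, was the lowest, and the part of tissue makeup in the *Ptger4* difference was not tested. The means were 663 ± 111 and 1031 ± 149 (SD, n = 5 each), which gave a log2 difference of 0.64 (SE 0.135, adjusted p = 0.00927), which is 1.56-fold with a 95% interval from 1.27 to 1.92. It passed on leaving out each mouse in turn, with values from 0.54 to 0.70. In the annotation 15.3% of its exon bases are shared with a pseudogene on the opposite strand.

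*Ptger2* (Entrez 19217; chromosome 14, 44988195 to 45003820) encodes EP2, the other receptor that couples to Gs. It was at 61.7, 65.4, 59.8, 51.4 and 26.8 normalized counts in WT replicates 1 to 5. In *Zfp36*ΔARE replicates 1 to 5 it was at 33.7, 9.05, 7.69, 22.7 and 19.8. WT replicate 5 and *Zfp36*ΔARE replicate 1 made the groups overlap, and the other 4 *Zfp36*ΔARE mice lay below all WT mice. It rested on 7 to 81 counts per library.

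The means of *Ptger2* were 53.0 ± 15.5 and 18.6 ± 10.7 (SD, n = 5 each), and the fitted log2 difference was -1.49 (SE 0.396, adjusted p = 0.0187), or 2.82-fold lower. *Zfp36*ΔARE replicate 1, the knock-in mouse without Y-linked counts, was the highest of its group. With a term for Y-linked counts, which compares genotypes among the mice that lack them, the value was -0.65 (adjusted p = 0.500), and the part of sex was not tested further. Without WT replicates 1 and 3 together, the 2 mice lowest in hair keratins, it was -1.35 (adjusted p = 0.0776). Macrophage markers were lower along with it. Of 10 such markers 9 were called lower, as were 19.1% of all tested genes, and none was at 0 counts. Their sums were 15258 to 30866 in WT and 7785 to 11892 in *Zfp36*ΔARE mice, and their part in the difference was not tested. Most mast cell, endothelial, dendritic cell, adipocyte and skeletal muscle markers were called lower too. No T cell marker was called, and all melanocyte markers were called higher.

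*Ptger3* (Entrez 19218; chromosome 3, 157566892 to 157645888) encodes EP3, which lowers cAMP through Gi. It was at 187, 154, 438, 210 and 227 normalized counts in WT replicates 1 to 5. The *Zfp36*ΔARE mice, in order, were at 182, 146, 176, 150 and 152. WT replicate 3 stood far above all others, and the *Zfp36*ΔARE mice stayed within a narrow range, in which WT replicate 2 also lay while the other 4 WT mice lay above it. The fitted log2 difference was -0.59 (SE 0.253, adjusted p = 0.0923). It was -0.27 without WT replicate 3 (adjusted p = 0.159) and passed only without WT replicate 2 (-0.72, adjusted p = 0.0463). In WT replicate 3 the skeletal muscle markers (881091 summed normalized counts against 178884 to 456811 in the other WT mice) and the adipocyte markers (52382 against 26868 to 37069) were also the highest. Their part in the *Ptger3* level was not tested.

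*Ptger1* (Entrez 19216) encodes EP1, which raises intracellular calcium. It had 12 to 45 counts per library and lay at 12.1 to 41.4 normalized counts in WT and 13.2 to 33.5 in *Zfp36*ΔARE mice. Its fitted log2 difference was -0.39 (SE 0.362, adjusted p = 0.418), with a 95% interval from 0.439 to 1.33 of the WT level, so at this depth only a large difference could be seen.

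Expressed as shares of the summed receptor level per length in each mouse, which does not depend on the scaling between libraries, *Ptger4* made up 37.2% to 68.1% in WT and 74.9% to 78.7% in *Zfp36*ΔARE skin. The groups did not overlap. *Ptger3* made up 24.5% to 56.4% and 17.0% to 21.2%, also without overlap. Since the shares of a mouse add up to the whole, a higher *Ptger4* share lowers the others, and the level of *Ptger3* itself overlapped between the groups and was not called. *Ptger2* was at 1.93% to 5.56% in WT and 0.497% to 1.88% in *Zfp36*ΔARE mice, and *Ptger1* was at 1.86% to 5.94% and 1.54% to 3.78%. WT replicate 3 had the lowest *Ptger4* share, at 37.2%, while the other 4 WT mice were at 60.3% to 68.1%. These shares are given as a description with no test.

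**Figure D4:**
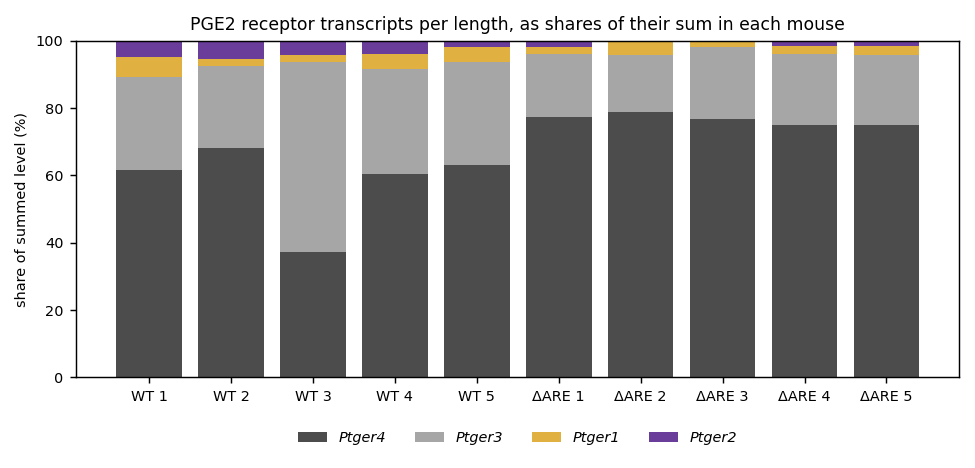
Share of each PGE2 receptor transcript in the summed level per length of the 4 receptors, as stacked bars for each mouse from 0 to 100%. *Ptger4* fills 74.9% to 78.7% of the bar in the 5 *Zfp36*ΔARE mice and 37.2% to 68.1% in the 5 WT mice.

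*Zfp36*ΔARE replicate 1, the knock-in mouse that lacked Y-linked counts, can be set beside the WT mice, which lacked them too. As 1 mouse it can fall outside the WT range by chance, and no share over all tested genes was taken. It lay above all WT mice for *Ptgds* (1161) and *Ptger4* (1225) and below all WT mice for *Ptgs1* (1221), *Ptges* (876) and *Hpgd* (458). For *Ptgs2*, *Ptges2* and the other 3 receptors it lay within the WT range. For *Hpgd*, *Zfp36*ΔARE replicates 2 to 5 were at 576 to 790, inside the WT range of 571 to 890. In the fit with the term for Y-linked counts, which rests on this mouse, no member was called with edgeR, nor was any other tested gene. No other tool was run with this term. All 10 members kept the sign of their difference there, with *Ptgds* at 1.65 and *Ptger4* at 0.89 on the log2 scale. Of the 46 tested genes of the other prostanoid and leukotriene lists described below, 36 kept theirs. The mice compared there are also in the main fit, so a shared sign is partly built in. The share of all tested genes that kept theirs was not taken.

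The rest of the pathway, in 5 lists of other prostanoid and leukotriene genes, was mostly lower where it was called. Among 50 such genes that were counted, 46 were tested. An adjusted p under 0.05 was reached by 23 of these (19 fell and 4 rose), or 50% against the background of 34.3%. Their median log2 fold change was -0.38, against 0.0076 for all tested genes. The count was 14 without WT replicates 1 and 3 together, where 15.9% of all tested genes passed. These lists were chosen with earlier results of these data known, so their share of calls is a description, not a test of the pathway.

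The other prostanoid synthases had the lowest median, at -1.31. Of 6 tested 5 were called and all 5 were lower, where 19.1% of all tested genes were called lower. *Tbxas1*, thromboxane synthase, was at 171 to 394 normalized counts in WT and 69.2 to 116 in *Zfp36*ΔARE mice, without overlap (log2 fold change -1.66, SE 0.248, adjusted p = 0.00446). Of all tested genes 11.9% were lower in *Zfp36*ΔARE mice without overlap. *Hpgds*, the hematopoietic PGD2 synthase, was at 680 to 1106 and 282 to 563, also without overlap (-1.02, SE 0.183, adjusted p = 0.0065). The 2 PGD2 synthases thus differed in opposite directions, since *Ptgds* was higher. *Akr1c18*, an aldo-keto reductase with PGF synthase activity, was at 1526 to 2569 and 280 to 1088 (-1.77, adjusted p = 0.00814), with *Zfp36*ΔARE replicate 1 the highest of its group. *Fam213b*, prostamide and PGF synthase, was at -0.64 (adjusted p = 0.0157), and the cytosolic PGE2 synthase gene *Ptges3* was at 0.16 and was not called (adjusted p = 0.271).

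Upstream, 3 of 14 tested phospholipase A2 genes were called, or 21.4% against the background of 34.3%, with a median of -0.067. *Pla2g7*, which hydrolyses platelet-activating factor, fell from 1806 ± 354 to 946 ± 210 normalized counts (log2 fold change -0.93, adjusted p = 0.007). *Pla2g2e*, a secreted phospholipase of the hair follicle, was at 70.8 to 675 in WT and 607 to 2024 in *Zfp36*ΔARE mice (1.86, SE 0.603, adjusted p = 0.0386), and its 2 lowest mice were WT replicates 3 and 1, the lowest in hair keratins. *Pla2g4b* rose by 0.82 from 19.7 to 35.1 (adjusted p = 0.0324). The most abundant genes of the list, *Pla2g2f* (-0.24, adjusted p = 0.112) and *Pla2g4f* (-0.12, adjusted p = 0.495), were not called.

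For transport and breakdown 4 of 7 genes were called, all lower and all with a fold change under 2. The background was 34.3% of all tested genes called and 19.1% called lower. *Slco2a1*, the prostaglandin uptake transporter, was at 1734 to 2410 normalized counts in WT and 877 to 1514 in *Zfp36*ΔARE mice (log2 fold change -0.92, SE 0.154, adjusted p = 0.00532). Its groups did not overlap, as was so in this direction for 11.9% of all tested genes. The prostaglandin reductase genes *Ptgr1* (-0.28, adjusted p = 0.0497) and *Ptgr2* (-0.32, adjusted p = 0.0296) and the carbonyl reductase gene *Cbr3* (-0.53, adjusted p = 0.0324) differed by less. *Zadh2* (0.013, adjusted p = 0.896) and *Cbr1* (-0.15, adjusted p = 0.118) were not called.

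Of the 5 receptors for other prostanoids 3 were called, all lower, against a background of 34.3% called and 19.1% called lower. *Ptgfr*, the PGF2α receptor, was at 258 to 523 normalized counts in WT and 171 to 196 in *Zfp36*ΔARE mice (log2 fold change -0.96, SE 0.212, adjusted p = 0.0105). *Ptgir*, the prostacyclin receptor, was at -0.86 (adjusted p = 0.0402) and *Ptgdr2*, the second PGD2 receptor, at -1.16 (adjusted p = 0.0413) on few counts, with a mean of 26.4 in WT and 11.7 in *Zfp36*ΔARE skin. *Tbxa2r* (-0.45, adjusted p = 0.187) and *Ptgdr* (-0.37, adjusted p = 0.333) were not called. *Ptger4* was thus the only one of the 9 prostanoid receptors called higher, where 15.3% of all tested genes were called higher.

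In the lipoxygenase and leukotriene list 8 of 14 genes were called, 6 lower and 2 higher. The background was 34.3% of all tested genes (19.1% lower and 15.3% higher). *Alox5ap*, the protein that presents arachidonic acid to 5-lipoxygenase, was at 532 to 1078 normalized counts in WT and 260 to 481 in *Zfp36*ΔARE mice (log2 fold change -1.25, SE 0.215, adjusted p = 0.00561). *Alox8*, an epidermal lipoxygenase known to be induced by phorbol ester, was higher, at 482 to 1537 and 2740 to 4989 (1.79, SE 0.342, adjusted p = 0.00757). *Alox12* was also higher, at 0.89 (adjusted p = 0.0138), and *Aloxe3*, of the barrier lipid pathway, lower at -0.40 (adjusted p = 0.0483). *Alox12e* (-0.54, adjusted p = 0.0593) and the leukotriene A4 hydrolase gene *Lta4h* (0.030, adjusted p = 0.705) were not called. The macrophage, mast cell and hair shaft sums given above moved with genotype beside these lists too, and their part was not tested.

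**Figure D5:**
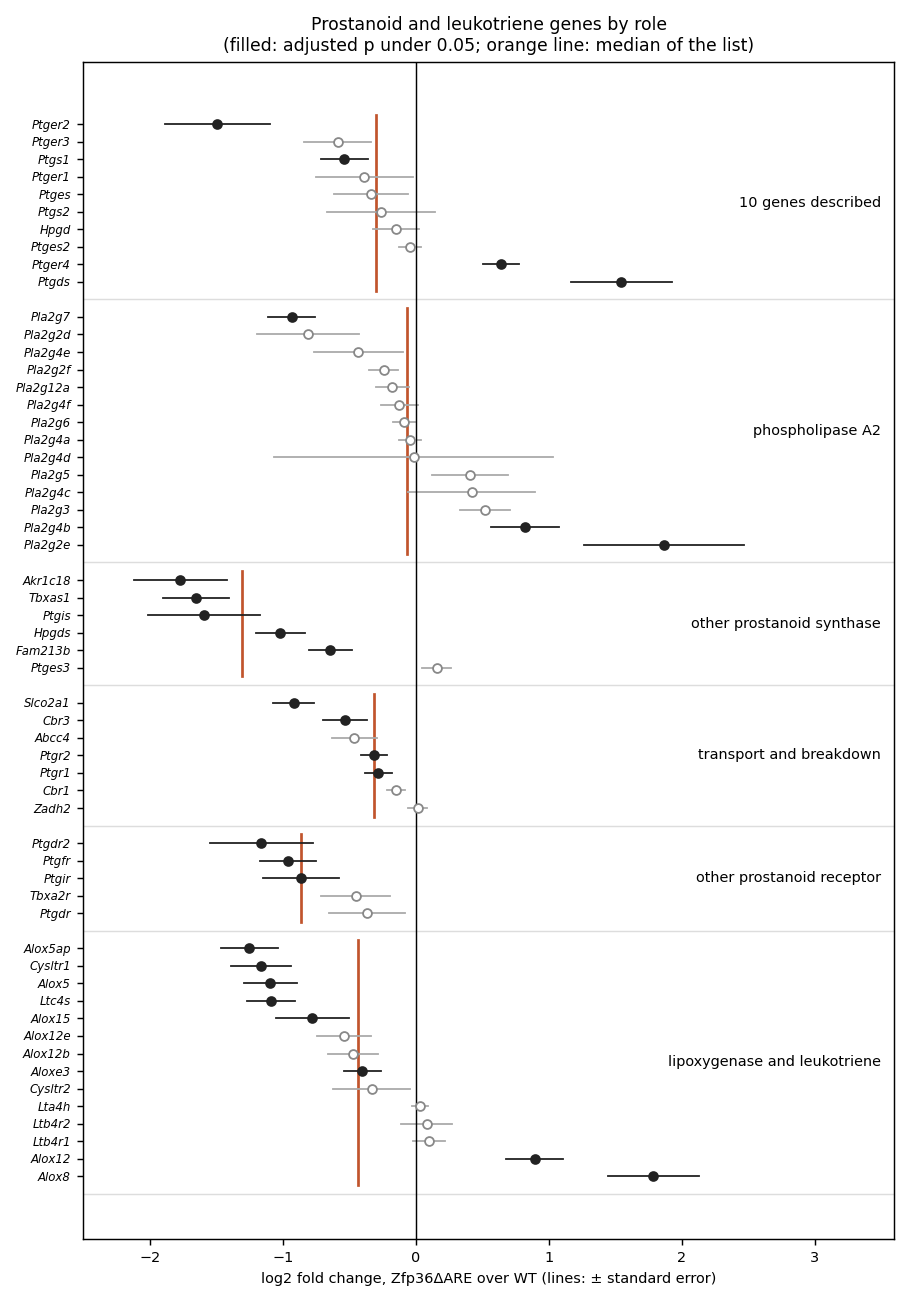
Log2 fold change of *Zfp36*ΔARE over WT skin, with its standard error, for the 10 genes and the 46 tested genes of the 5 other lists. Filled points passed an adjusted p of 0.05, and the orange line is the median of the list. The other prostanoid synthases have the lowest median, at -1.31, and 19 of the 23 called genes outside the 10 lie to the left of 0.

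The genes most like each member across mice were found from log2(CPM + 1) with each genotype centred on its own mean, over 10 libraries and 13690 genes of mean normalized count at least 50. The points share library depth and tissue makeup, and with so many genes searched a high Pearson's r is the rule. For *Ptgs2* they were *Bcl10* (0.964), *Rab31* and *Capg*, and for *Ptges* *Dbnl* (0.978), *Bhlhe40* and *2010109I03Rik*. *Ptgds* was most like *Mical1* (0.973), *Trpm1* and *Cps1*, and *Ptges2* most like *Cyc1* (0.974), *Mdh2* and *Ndufb10*. *Ptgs1* was closest to *Xrcc3* (0.952), *Serpinb7* and *Wnt7b*, and *Hpgd* to *Sec11a* (0.957), *Tceal8* and *3010026O09Rik*. Among the receptors, *Ptger4* was nearest to *Sema3e* (0.969), *9230110C19Rik* and *Pggt1b*, *Ptger2* to *Sri* (0.984), *Fam102b* and *Fam126a*, *Ptger3* to *Slc36a2* (0.965), *Agpat2* and *Amotl1*, and *Ptger1* to *Gli1* (0.931), *Tcof1* and *Scml2*.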

How the data were processed

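RNA was sequenced from DMBA/TPA-treated skin, 1 library for each of 10 mice (5 per genotype). Per the study's methods, the authors dropped reads of low mean quality, mapped the others to mm10 (STAR 2.5.2b), obtained fragment counts per gene with featureCounts (Subread 1.5.0-p1) and deposited raw counts with gene lengths. How multi-mapped fragments and strand were treated is not given in the sources used here. 2 rows without a gene name (at most 0.000143% of a library) were left out. Counts were scaled by TMM, filtered with filterByExpr and tested with the quasi-likelihood test of edgeR 4.0.16 (R 4.3.3, robust, genotype as the only term), with Benjamini-Hochberg adjustment over 15543 genes. Standard errors and 95% intervals were derived from its F statistic. The authors tested with DESeq2, used here as an alternative. The script was tested on simulated data. Levels between genes use RPKM, from the deposited lengths. 3′-UTR letters come from GENCODE M21, which shares the build, taking the basic transcript with the longest 3′-UTR and starting after the stop codon. Alternatives used DESeq2 1.42.0, limma 3.58.1, other scalings, filters and designs, and left mice out. Named genes were the 10 members, of each pathway list up to 4 called and 2 uncalled genes with the most counts, and the 3 genes most like each member. Members and lists were chosen with earlier results of these data known.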

Additional observations from a re-analysis of the deposited data

Results flagged for a closer look

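Among 76 groups of 5 mice examined for a mouse far from the others, 4 were found, where chance gives about 3.8, since 1 in 20 such groups is expected. All of them were WT replicate 3. *Ptger3* had 438 normalized counts there against 154 to 227 in the other WT mice (a gap of 0.744 of the range of the group). *Fam213b* had 1453 against 876 to 1036 (0.722), *Ptgr2* had 1746 against 1190 to 1301 (0.8), and *Zadh2* had 1569 against 1280 to 1364 (0.71). The same mouse had the lowest hair shaft sum and the highest skeletal muscle and adipocyte sums of all 10, and the part of these in the 4 values was not tested.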

How the results depend on the processing

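The 4 called members were the same without a filter, with non-robust dispersions, with upper-quartile scaling or the size factors of DESeq2, and under DESeq2 and limma-voom. With at least 10 counts in every library *Ptger2* was not tested, so 3 members were called, 1 of them with a fold change over 2. With the term for Y-linked counts, 0 members passed with edgeR (4 at an unadjusted p under 0.05), 0 with a fold change over 2, and 0 pathway genes (19 at an unadjusted p under 0.05). That fit compares 5 mice with 1, which is assumed to vary like the others. Without WT replicates 1 and 3, 2 members passed (*Ptgds* and *Ptger4*), 1 with a fold change over 2, and 14 pathway genes, where 15.9% of all tested genes passed. Leaving out each mouse in turn gave 3 to 5 members and 15 to 22 pathway genes (15 without WT replicate 1 or *Zfp36*ΔARE replicate 2). Calls over all tested genes also varied there, from 21.3% without *Zfp36*ΔARE replicate 2 to 34.3% without WT replicate 4. *Ptges2* changed sign to 0.016 without WT replicates 1 and 3 and ranged from -0.083 to 0.012 with each mouse left out, always within error. *Ptgs2* stayed negative and uncalled in all 20 alternatives. Replicate numbers are shared between groups but pair nothing in the labels, and deviations of same-numbered mice correlated at -0.181 to 0.0851. With the replicate block 3 members passed, *Ptgs1* not among them (-0.54, adjusted p = 0.0914), 17 pathway genes passed and *Ptgs2* was at -0.26. Of all tested genes 17.6% passed with that block. Depth limits *Ptgs2*, *Ptger1* and *Ptger2* most, at 119 counts or fewer per library.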
